A study of Mus musculus with 16 samples.

Results

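The 35 imprinted genes described here were taken from a list of mouse genes of established parent-of-origin expression, and all 35 were found among the 30451 genes of a single-cell RNA-seq table from whole testes of newborn mice at postnatal day 2. The list spans 16 imprinted loci. By textbook knowledge, 19 of the genes are expressed from the paternal allele and 11 from the maternal allele, and in the other 5 the allele depends on the tissue, promoter or isoform. The membership rule used no measured value. Reads were not assigned to parental alleles, so the values are total transcript levels.

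Each genotype was represented by 1 library in the table. The wild type library kept 6329 cells and the library labelled *Ddx5* knockout kept 4950. The knockout label stands for floxed *Ddx5* alleles recombined by Cre under the *Mvh* promoter, which is active in germ cells, and the reference used for counting also held the GFP and CRE transgene sequences. GEO lists 8 samples for each genotype, but the barcodes carry no sample or animal number and could not be divided among them. Genotype, library and animal therefore cannot be told apart, cells are not replicates, and no p-value is given. Levels are counts per 1000000 (CPM) of the unique molecular identifiers (UMIs) summed over the cells of a type, with exact 95% Poisson intervals. The intervals of ratios are exact conditional binomial ones and those of cell shares Clopper-Pearson ones, and none covers more than counting error. A 3′ UMI counts a transcript once whatever its length.

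Cells were sorted into 6 overlapping gates by marker counts. The stroma gate (interstitial fibroblast-like cells with a *Pdgfra* UMI and little *Amh*) held 3590 wild type cells, and 3005 cells came from the library labelled knockout. The Sertoli gate, the *Amh*-expressing nurse cells of the cords, held 2256 and 1635 cells. The myoid gate, contractile cells that surround the cords, held 764 and 524 cells, of which 88.2% and 91.2% also passed the stroma gate. The Leydig gate, the steroid-producing cells, held 177 and 143 cells, the macrophage gate 31 and 23, and the germ gate, the gonocytes, 125 and 12. Each gate's marker list was highest in its own gate, save 1 of the 8 germ markers in 1 library. The lists include the genes that define the gates, which were high there by construction. In total *Ddx5* UMIs the germ gate went against the label, at 1152 CPM in wild type and 1736 CPM in the library labelled knockout. CRE was at 43.2 CPM there against 0 in wild type. Whether the *Ddx5* UMIs came from recombined alleles was not tested. The paper reported lower *Ddx5* mRNA by single-cell qRT-PCR in sorted germ cells of the knockout. The 12 germ cells of the library labelled knockout are shown but carry little weight. Stroma cells of the library labelled knockout also held 1005 CPM of globin transcripts against 76.3 CPM in wild type.

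Genomic imprinting is the expression of a gene from only the maternally or the paternally inherited copy. It is set by DNA methylation laid down in the parental germ lines, kept in body cells and erased in primordial germ cells, so that male gonocytes acquire a new paternal pattern around birth. Many imprinted genes act on fetal growth and on progenitor cells and lie in clusters under a shared control region, in which a long non-coding RNA from one parental copy accompanies protein-coding genes expressed from the other. The *Dlk1*-*Dio3* cluster is a well-studied case, with *Dlk1* expressed from the paternal copy and *Meg3*, *Rian* and *Mirg* from the maternal copy.

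The promoter stretches of 3 genes on which the results turn are shown first, because each lies at or near a region whose methylation is known to differ between the parental copies. The letters come from RefSeq on GRCm38.p6 and run 5′ to 3′ on the plus strand over the 250 bases before the transcript start. Capitals mark the hexamer TGCCGC or its reverse complement GCGGCA, the core of the sequence bound by the imprint-protecting factor ZFP57, searched on both strands. The *Meg3* stretch lies at chr12:109540746-109540995, the *Mest* stretch at chr6:30737800-30738049 and the *Plagl1* stretch at chr10:13090582-13090831.
Meg3: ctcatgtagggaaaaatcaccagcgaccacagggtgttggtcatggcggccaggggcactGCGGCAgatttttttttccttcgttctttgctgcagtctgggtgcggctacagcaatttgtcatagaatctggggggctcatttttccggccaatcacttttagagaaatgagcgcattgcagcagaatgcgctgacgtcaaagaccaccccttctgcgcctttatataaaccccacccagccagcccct
Mest: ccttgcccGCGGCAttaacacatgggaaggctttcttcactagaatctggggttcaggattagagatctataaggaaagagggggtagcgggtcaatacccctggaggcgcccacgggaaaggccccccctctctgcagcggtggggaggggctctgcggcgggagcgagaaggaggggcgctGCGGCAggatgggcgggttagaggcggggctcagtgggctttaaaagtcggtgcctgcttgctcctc
Plagl1: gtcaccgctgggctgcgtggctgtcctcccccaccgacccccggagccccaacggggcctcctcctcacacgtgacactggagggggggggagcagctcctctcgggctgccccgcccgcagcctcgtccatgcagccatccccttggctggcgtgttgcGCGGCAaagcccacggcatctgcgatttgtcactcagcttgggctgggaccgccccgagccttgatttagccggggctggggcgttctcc
The *Meg3* stretch held 1 hexamer and 10 CpG dinucleotides, the *Mest* stretch 2 hexamers and 14 CpG, and the *Plagl1* stretch 1 hexamer and 19 CpG. Of the 35 genes, 28 were searched, with 46 start sites in all. The hexamer was held by 5 of these stretches (10.9%), from *Mest*, *Zim1*, *Plagl1* and *Meg3*. The 2 *Mest* stretches among the 5 overlap and hold the same hexamers. The 3 genes shown are among the 4 genes with the hexamer, so they are not typical of the list. Another *Meg3* stretch and another *Mest* stretch, both with 0 hexamers, are not shown. The share over all 32851 stretches of mouse genes was 8.68%, so the hexamer was about as common elsewhere. The median number of CpG dinucleotides was 8 in the imprinted genes and 6 over all genes. The entries of *H19*, *Rtl1*, *Cdkn1c*, *Peg10*, *Sgce*, *Impact* and *Peg13* are missing.

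The oppositely oriented *Peg3* and *Usp29* start from a single short stretch between them, and both are paternally expressed. The 163 bases at chr7:6730420-6730582, plus strand, hold 5 CpG dinucleotides and 0 hexamers.
Peg3-Usp29: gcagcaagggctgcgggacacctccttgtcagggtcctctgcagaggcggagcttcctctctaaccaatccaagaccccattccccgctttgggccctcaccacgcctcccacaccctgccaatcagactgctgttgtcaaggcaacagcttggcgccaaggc

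Imprinted transcripts were concentrated in the stroma. The 35 genes together made up 1.25% of all UMIs of the wild type stroma gate and 1.28% in the library labelled knockout. Their share was lower in each other gate, at 0.636% and 0.652% in myoid cells, 0.397% and 0.440% in Leydig cells, 0.242% and 0.278% in Sertoli cells, 0.186% and 0.323% in macrophages, and 0.130% and 0.210% in germ cells. In cells that passed only 1 gate the macrophage shares were 0.103% and 0.0793%, so the order of the libraries turned around, and the germ shares were 0.0856% and 0.128%. In the stroma *Meg3*, *Gnas* and *Dlk1* supplied 67.8% and 68.8% of these UMIs. Paternally expressed members summed to 4654 CPM and maternally expressed members to 5116 CPM in the wild type stroma, and to 4390 and 5646 CPM in the library labelled knockout.

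Of the 35 genes, 12 reached 100 CPM in the stroma gate of each library (34.3%), against 5.5% of all genes in both libraries. The same 100 CPM was reached by 12 and 12 members in myoid cells (5.51% and 5.51% of all genes), by 8 and 8 in Leydig cells (5.56% and 5.5%) and by 6 and 7 in Sertoli cells (6.11% and 6.01%). In macrophages 4 and 6 members reached it (5.12% and 5.06% of all genes) and in germ cells 3 and 6 (6.4% and 4.3%). Among cells that passed only 1 gate, the count was 5 and 6 in Leydig cells, 0 in wild type germ cells, 5 in germ cells of the library labelled knockout and 1 in the macrophages of each library. With predicted doublets removed, 3 and 3 members reached the level in Sertoli cells.

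**Figure D1:**
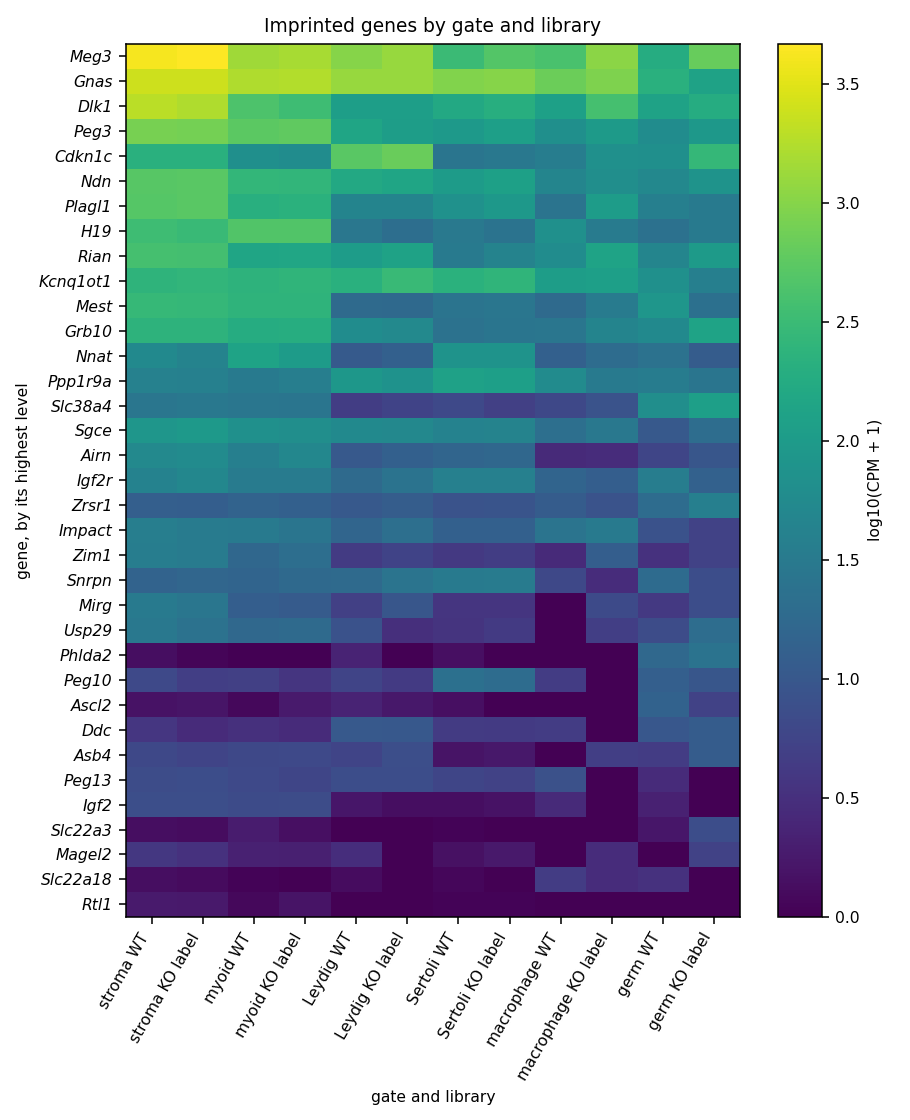
Level of each of the 35 imprinted genes (rows, ordered by highest level) in the 6 gates of the 2 libraries (columns), as log10 of CPM plus 1. The brightest fields lie in the stroma columns at *Meg3*, *Gnas* and *Dlk1*, while *Cdkn1c* is brightest in the Leydig columns, *H19* in the myoid columns and *Ppp1r9a* in the Sertoli columns.

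Of 32 members with at least 20 UMIs over the gates of each library, 18 (56.3%) had their highest level in the stroma gate in both libraries, against 8.15% of all genes tested. For *Igf2*, *Rtl1*, *Usp29*, *Igf2r* and *Impact* the interval of the ratio of stroma to the next gate included 1 in at least 1 library. By that interval the first place of these 5 is not separated from the second beyond counting error. The gates share cells, and most myoid cells also passed the stroma gate. Where myoid cells came next, as for *Igf2* and *Rtl1*, shared UMIs drew the ratio towards 1 and the interval is not exact. Myoid cells were highest for *H19* and *Nnat* (6.63% of all genes), Leydig cells for *Cdkn1c* (11.3%), Sertoli cells for *Peg10*, *Ppp1r9a* and *Snrpn* (10.2%) and germ cells for *Ascl2*, *Zrsr1* and *Slc38a4* (17.9%). Macrophages were highest for 0 members (8.86%). In the library labelled knockout the first place of *Peg10* in Sertoli cells and of *Ascl2* in germ cells was not separated from the second either.

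Against the sum of the other gated cells of the same library, 22 of the 32 members were at least 2-fold higher in the stroma in both libraries, compared with 17.2% of all genes. *Peg10*, *Ppp1r9a* and *Snrpn* were at least 2-fold lower there, a direction taken by 15.0% of all genes. The median member stood 2.14 (wild type) and 2.04 (library labelled knockout) log2 units higher in the stroma, and the median over all genes was −0.10 and −0.03. In Sertoli cells the picture was turned around, with 22 members at least 2-fold lower (22.6% of all genes) and 3 higher (11.2%), and medians of −2.42 and −2.59 against −0.08 and −0.07. Myoid cells had 1 member higher (4.94% of all genes) and 4 lower (12.8%), Leydig cells 2 higher (8.41%) and 15 lower (22.2%), macrophages 0 higher (7.73%) and 21 lower (32.7%), and germ cells 3 higher (13.5%) and 19 lower (17.7%). The interval of the ratio included 1 in at least 1 library for 1 of the 15 lower members in Leydig cells (*Rtl1*), for 5 of the 21 in macrophages (*Mirg*, *Rtl1*, *Usp29*, *Ascl2* and *Slc38a4*) and for 4 of the 19 in germ cells (*Igf2*, *Mirg*, *Rtl1* and *Peg13*), so the ratios of these were not below 1 beyond counting error in each library. The 3 higher members in germ cells came to 0 after thinning and to 0 without dividing cells.

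**Figure D2:**
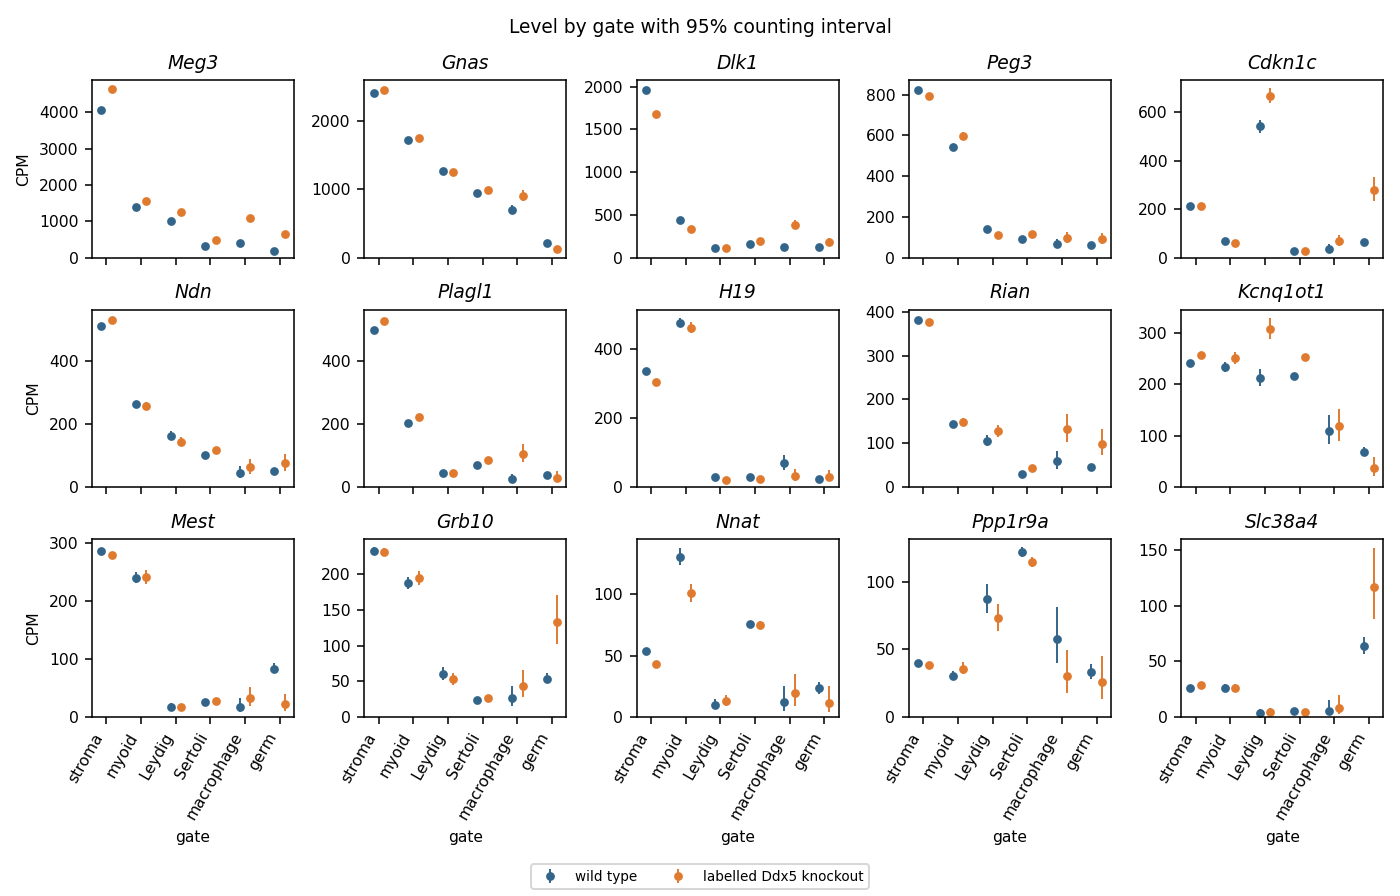
Level in CPM (linear y axis from 0, scaled per gene) of the 15 imprinted genes that reached 100 CPM in some gate, by gate (x axis) and library, with 95% Poisson intervals as bars. Most panels are highest at the stroma on the left, *Kcnq1ot1* stays between 36.7 and 308 CPM, and *Cdkn1c*, *Ppp1r9a* and *Slc38a4* peak outside the stroma.

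The *Dlk1*-*Dio3* cluster on chromosome 12 contributed most of the imprinted UMIs in the stroma. *Dlk1*, a transmembrane protein of the Notch ligand family that marks progenitor cells, stood at 1967 CPM (1954 to 1981) in the wild type stroma and at 1680 CPM (1666 to 1694) in the library labelled knockout. It stood at 436 and 337 CPM in myoid cells, 113 and 114 in Leydig cells, 164 and 197 in Sertoli cells, 120 and 383 in macrophages, and 128 and 188 in germ cells. *Dlk1* was therefore 12.7-fold (12.4 to 13.0) and 9.11-fold (8.87 to 9.36) higher in the stroma than in the other gated cells.

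*Meg3*, the long non-coding RNA expressed from the maternal copy, was at 4073 CPM (4053 to 4093) and 4640 CPM (4617 to 4663) in the stroma. In the wild type library it was at 1389 CPM in myoid, 999 in Leydig, 311 in Sertoli, 406 in macrophage and 185 in germ cells. The library labelled knockout gave 1556, 1258, 491, 1080 and 645 CPM in the same order. *Dlk1* and *Meg3* parted in Leydig cells, where the ratio of *Dlk1* to *Meg3* UMIs was 0.113 and 0.0905, compared with 0.483 and 0.362 in the stroma. In cells that passed only 1 gate it was 0.0319 and 0.0180 in Leydig cells and 0.5002 and 0.374 in the stroma.

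*Rian*, a non-coding RNA that hosts small nucleolar RNAs downstream of *Meg3*, was also highest in the stroma. Its levels were 380 and 376 CPM in the stroma, 143 and 149 in myoid cells, 106 and 127 in Leydig cells, 30.3 and 42.8 in Sertoli cells, 59.8 and 131 in macrophages, and 45.1 and 99.3 in germ cells. The ratio of *Rian* to *Meg3* UMIs lay between 0.0810 and 0.106 over the stroma, myoid, Leydig and Sertoli gates of both libraries. It was 0.244 and 0.154 in germ cells, and 0.614 and 0.290 in those that passed only 1 gate. In macrophages it was 0.147 and 0.122, with intervals of 0.0995 to 0.212 and 0.0934 to 0.156 that included the myoid and Leydig values of the same library and lay above the stroma and Sertoli values. *Mirg*, the microRNA host at the far end of the cluster, was highest in the stroma at 30.5 and 26.5 CPM, and the paternally expressed retrotransposon-derived *Rtl1* did not exceed 0.847 CPM in any gate.

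A set of stroma cells without *Meg3* transcripts appeared almost exclusively in the wild type library. This split was chosen after the values were seen, and it used cells of at least 5000 UMIs that passed only the stroma gate, with predicted doublets removed. In wild type, 218 of 2767 cells (7.88%, 6.90 to 8.95) held 0 *Meg3* UMIs, and in the library labelled knockout 6 of 2403 did (0.250%, 0.0917 to 0.543). The other wild type cells had a median of 51 *Meg3* UMIs, with 31 cells at 1 UMI, 69 at 2 to 5 and 2449 at 6 or more, so cells at 0 were more frequent than cells at 1 to 5. Depth was similar, with a median of 8961.5 UMIs in the cells without and 9567 in those with *Meg3*.

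The cells without *Meg3* also lacked the maternal non-coding RNAs downstream of it and held more *Dlk1*. *Rian* was seen in 9 of the 218 cells (4.13%) and in 90.7% of the others, with 4.28 against 488 CPM, a ratio of 0.00877 (0.00401 to 0.0167). For comparison, in wild type cells that passed only the Sertoli gate, doublets included and thinned to 5000 UMIs each, *Rian* had a UMI in 5.62% of cells and *Meg3* in 12.6%, and the source of those UMIs was not tested. *Mirg* stood at 1.43 against 39.2 CPM (ratio 0.0364, 0.00749 to 0.107). *Dlk1* stood at 5858 CPM in the cells without and at 2198 CPM in the cells with *Meg3*, a ratio of 2.67 (2.61 to 2.72), with medians of 54 and 20 UMIs per cell. Lower maternal non-coding RNAs and higher paternally expressed *Dlk1* were thus seen in the same cells. The other paternally expressed genes of the cluster were too rare to read, *Rtl1* at a ratio of 1.86 (0.473 to 5.34) and *Dio3*, a thyroid hormone deiodinase outside the list, at 2.33 (0.700 to 6.13).

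The difference was narrow in the transcriptome. Of 8824 genes tested, 7 (0.0793%) were at least 2-fold higher in cells without *Meg3* and 27 (0.306%) at least 2-fold lower. Of 24 members tested, 1 was higher, *Dlk1*, and besides *Meg3*, which defined the split, *Rian* and *Mirg* were lower. *Gm37899* (0.476 against 140 CPM) and *B830012L14Rik* (0.476 against 82.5 CPM), annotated on the same strand between *Rian* and *Mirg*, were the other lower genes of the cluster. Among members at other loci the ratios were smaller: *Mest* 1.504 (1.40 to 1.61), *Cdkn1c* 1.36, *Peg3* 1.20, *H19* 1.21, *Gnas* 1.08, *Kcnq1ot1* 0.988 and *Nnat* 0.711. Stromal markers were mostly close to 1, at 0.941 for *Pdgfra*, 1.06 for *Col1a1* and 1.21 for *Dcn*, while the proteoglycan gene *Lum* was at 2.27. The collagen gene *Col12a1* and the leptin receptor gene *Lepr* were also among the genes at least 2-fold higher, and *Sox9*, a Sertoli cell factor, *Fst*, an activin inhibitor, and *Cyp26b1*, a retinoic acid hydroxylase, among those at least 2-fold lower. The part of cell subsets in the split was not tested. Dividing cells made up 15.1% of the cells without and 19.5% of the cells with *Meg3*.

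**Figure D3:**
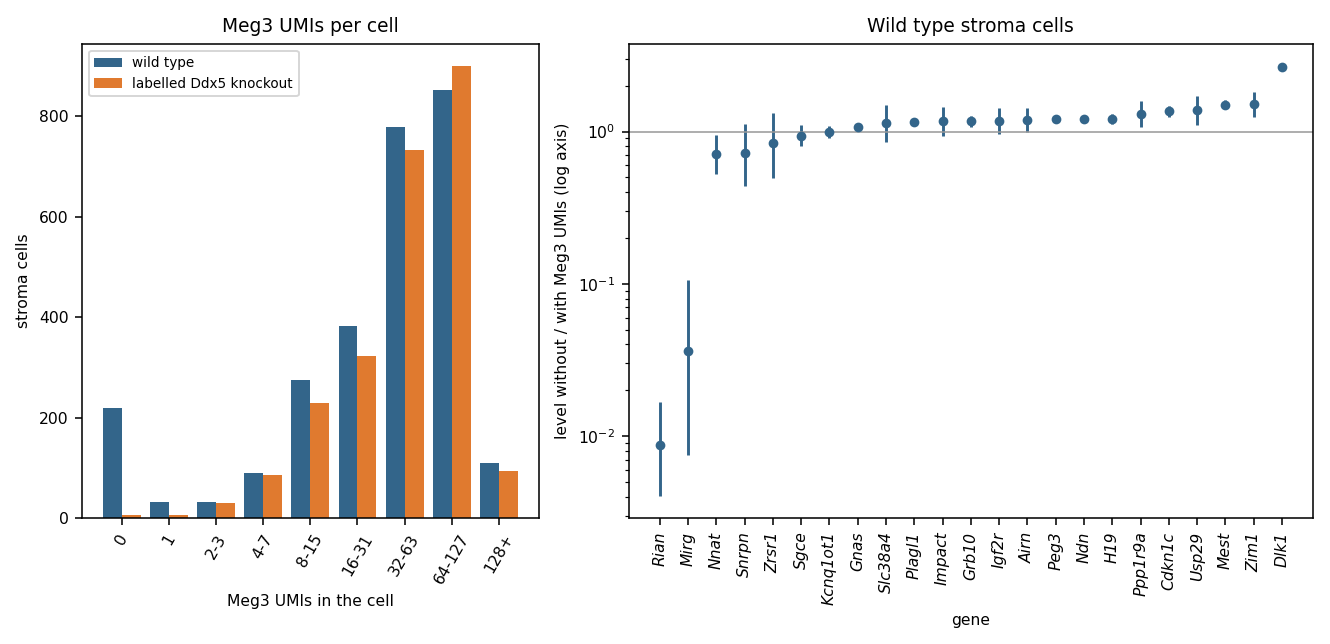
Left, number of stroma cells of each library (y axis) by their *Meg3* UMIs (x axis, in ranges). Right, ratio of CPM in wild type stroma cells without over those with a *Meg3* UMI (log axis, bars are 95% intervals) for imprinted genes. The wild type library has 218 cells at 0 UMIs against 6, and *Rian* and *Mirg* lie far below 1 while *Dlk1* lies at 2.67.

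Cells without *Meg3* were also found in other gates of the wild type library. In the Leydig gate 18 of 123 cells that passed only this gate had 0 *Meg3* UMIs (14.6%, 8.91 to 22.1) against 0 of 99 in the library labelled knockout, which has an upper bound of 3.66%. The ratio of *Rian* in these Leydig cells was 0.0385 (0.000969 to 0.218). *Dlk1*, which was rare in Leydig cells, was seen in 11.1% of those without and 31.4% of those with *Meg3*, with a ratio of 0.429 (0.0851 to 1.34), and stromal *Dcn* had a ratio of 0.300 (0.00725 to 1.88) in the same cells. Over all cells of the Leydig gate the ratio was 0.107 (0.0290 to 0.277) for *Dlk1* and 0.0390 (0.00471 to 0.142) for *Dcn*, and the part of stromal RNA in these ratios was not tested. In the myoid gate, with cells that also passed the stroma gate included, the shares were 29 of 761 (3.81%) and 1 of 524 (0.191%). Since the barcodes carry no animal number, whether the cells came from 1 animal or several cannot be told apart.

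Leaving out the cells at 0 moved the library ratios of the cluster, for some genes towards 1 and for others away from it. Over all stroma cells of this set *Dlk1* had a ratio of library labelled knockout to wild type of 0.830 (0.820 to 0.839) and *Meg3* of 1.11 (1.10 to 1.12). In cells with at least 1 *Meg3* UMI the ratios were 0.933 (0.922 to 0.944) for *Dlk1* and 1.03 (1.02 to 1.04) for *Meg3*. *Rian* went from 0.957 (0.933 to 0.982) to 0.889 (0.866 to 0.912) and *Mirg* from 0.843 (0.767 to 0.927) to 0.785 (0.714 to 0.862). The correlation of *Dlk1* and *Meg3* levels across cells, given as a description, was 0.171 over all 2767 wild type cells and 0.643 over the 2549 with a *Meg3* UMI, compared with 0.746 over 2403 and 0.750 over 2397 cells in the library labelled knockout. Across the cells that held *Meg3*, *Dlk1* and *Meg3* therefore varied together in both libraries, although they are transcribed from opposite parental copies. The 31 wild type cells at 1 *Meg3* UMI departed from this. Their median was 49 *Dlk1* UMIs, against 54 in wild type cells at 0 and 2 in those at 2 to 3 *Meg3* UMIs.

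At the *Igf2*-*H19* locus on chromosome 7 only the non-coding partner was abundant. *H19* was higher in myoid cells, at 475 CPM (461 to 488) and 461 CPM (445 to 477), than in the stroma, at 336 and 302 CPM. It was at 27.9 and 20.2 CPM in Leydig cells, 29.4 and 24.2 in Sertoli cells, 68.6 and 32.4 in macrophages, and 22.2 and 30.2 in germ cells. *Igf2*, the fetal growth factor, did not exceed 6.70 CPM, and the ratio of *Igf2* to *H19* UMIs in the stroma was 0.0199 and 0.0219. The *Igf2* value is uncertain, since the annotation places the gene model *Gm49394* on the same strand over 3596 of its 5723 exonic bases and 497 of its last 500, and that model was not in the table.

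*Peg3*, a zinc finger protein whose start lies beside that of *Usp29* in the stretch shown above, was highest in the stroma at 822 and 793 CPM. It was at 545 and 598 CPM in myoid cells, 140 and 110 in Leydig cells, 93.3 and 116 in Sertoli cells, 66.8 and 97.1 in macrophages, and 60.6 and 90.7 in germ cells. *Usp29*, a ubiquitin-specific protease, gave few UMIs, with 0.0350 and 0.0291 *Usp29* UMIs per *Peg3* UMI in the stroma. The maternally expressed neighbour *Zim1* was also highest in the stroma, at 35.1 and 33.1 CPM.

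The cluster around *Kcnq1ot1* on chromosome 7 split by cell type. *Cdkn1c*, which encodes the cell cycle inhibitor p57, was highest in Leydig cells at 542 CPM (516 to 569) and 668 CPM (638 to 698). It was at 213 CPM in the stroma of both libraries, 66.4 and 59.0 in myoid cells, 25.9 and 28.5 in Sertoli cells, 35.2 and 68.6 in macrophages, and 66.2 and 278 in germ cells. The ratio of Leydig to other gated cells was 4.70 (4.46 to 4.96) and 5.59 (5.32 to 5.88). *Kcnq1ot1*, the paternally expressed antisense RNA of the cluster, was at 242 and 257 CPM in the stroma, 234 and 251 in myoid cells, 213 and 308 in Leydig cells, 216 and 253 in Sertoli cells, 109 and 118 in macrophages, and 69.2 and 36.7 in germ cells. It was at least 2-fold lower than in the other gated cells in macrophages and germ cells of both libraries, and in neither direction past 2-fold in the other 4 gates. The placental gene *Phlda2* was highest in germ cells, at 16.4 and 23.7 CPM. *Ascl2*, a factor of the trophoblast, was at 13.4 CPM in wild type germ cells, and its 2 UMIs in those of the library labelled knockout lay under the limit of 3 UMIs.

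*Gnas*, the stimulatory G protein alpha subunit, was abundant in each somatic gate. It was at 2409 and 2464 CPM in the stroma, 1720 and 1755 in myoid cells, 1277 and 1262 in Leydig cells, 942 and 985 in Sertoli cells, and 705 and 903 in macrophages. Germ cells had 214 and 130 CPM, the lowest of the 6 gates in both libraries.

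*Mest*, *Plagl1*, *Ndn* and *Grb10* were each highest in the stroma, with myoid cells next in both libraries. *Mest*, a hydrolase-like protein of mesodermal tissue, was at 286 and 278 CPM in the stroma 240 and 241 in myoid cells, 17.6 and 17.0 in Leydig cells, 24.8 and 26.6 in Sertoli cells, 17.6 and 32.4 in macrophages, and 83.1 and 21.6 in germ cells. *Plagl1*, a zinc finger factor, was at 498 and 529 CPM in the stroma 204 and 222 in myoid cells, 44.8 and 43.5 in Leydig cells, 70.9 and 87.7 in Sertoli cells, 24.6 and 107 in macrophages, and 37.7 and 30.2 in germ cells. Sertoli cells thus held more *Plagl1* than Leydig cells, the reverse of the order for *Ndn*. *Ndn*, a MAGE family protein, was at 511 and 530 CPM in the stroma, 263 and 259 in myoid cells, 163 and 143 in Leydig cells, 103 and 119 in Sertoli cells, 45.7 and 62.9 in macrophages, and 49.7 and 75.6 in germ cells. *Grb10*, an adaptor that dampens insulin and IGF1 receptor signalling, was at 233 and 231 CPM in the stroma 188 and 195 in myoid cells, 60.4 and 52.5 in Leydig cells, 23.1 and 25.7 in Sertoli cells, 26.4 and 43.8 in macrophages, and 53.7 and 134 in germ cells. The last exons of *Mest* overlap *Copg2* on the opposite strand by 912 bases, those of *Gnas* overlap *Gm20721* and those of *Meg3* overlap *Gm26906*, and reads there are assigned by strand only if the counting used it.

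A few members were highest outside the stroma. *Ppp1r9a*, which encodes the actin-binding protein neurabin, was at 123 CPM (119 to 126) and 115 CPM (111 to 119) in Sertoli cells, 87.3 and 73.4 in Leydig cells, 39.9 and 38.5 in the stroma, 30.4 and 35.7 in myoid cells, 58.0 and 30.5 in macrophages, and 33.3 and 25.9 in germ cells. *Nnat*, a small membrane proteolipid, was at 131 CPM (124 to 138) and 101 CPM (93.4 to 108) in myoid cells, 75.6 and 74.7 in Sertoli cells, 53.5 and 43.1 in the stroma, 9.96 and 12.5 in Leydig cells, 12.3 and 19.05 in macrophages, and 23.1 and 10.8 in germ cells. *Slc38a4*, a neutral amino acid transporter, was at 64.1 CPM (56.8 to 72.1) and 117 CPM (87.6 to 152) in germ cells. It was at 26.1 and 28.4 CPM in the stroma, 26.1 and 25.7 in myoid cells, 3.65 and 4.52 in Leydig cells, 5.39 and 4.01 in Sertoli cells, and 5.27 and 7.62 in macrophages. The germ values rest on 277 and 54 UMIs.

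The other 20 members were below 100 CPM in each gate, with highest levels between 0.847 and 91.2 CPM. *Sgce*, an epsilon-sarcoglycan, was the most abundant, at 83.5 and 91.2 CPM in the stroma. Its neighbour *Peg10*, which shares a promoter region with it, had the opposite preference, at 5.41 and 3.83 CPM in the stroma and 21.6 and 18.7 CPM in Sertoli cells, so that *Sgce* UMIs outnumbered *Peg10* UMIs 15.4 and 23.8 to 1 in the stroma and 1.90 and 2.25 to 1 in Sertoli cells. *Snrpn*, a core protein of small nuclear ribonucleoproteins, was also highest in Sertoli cells, at 31.3 and 32.2 CPM. *Airn*, the antisense RNA of *Igf2r*, was at 52.4 and 57.7 CPM in the stroma, and *Igf2r*, the receptor that clears IGF2, at 41.2 and 49.3 CPM.

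Part of the signal outside the stroma moved with stromal markers. Predicted doublets made up 9.53% and 13.4% of the Sertoli gate, and among cells that passed only the Sertoli gate 5 stromal markers stood at 6.30% to 7.30% of their stroma level in wild type and at 9.89% to 10.6% in the library labelled knockout. *Meg3* (6.20% and 8.73%), *Rian* (6.39% and 9.44%), *Dlk1* (6.73% and 9.68%) and *Mest* (6.81% and 8.47%) fell in or below that range, so their Sertoli levels were no higher, relative to the stroma, than that of the highest marker. *Peg3* (9.75% and 13.2%), *Plagl1* (11.9% and 14.1%), *Ndn* (17.3% and 19.5%), *Gnas* (36.1% and 36.6%) and *Kcnq1ot1* (89.2% and 98.8%) lay above the markers.

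After the predicted doublets were removed, the markers dropped to between 0.662% and 1.30% and between 1.60% and 2.43%, in 2001 and 1411 cells. *Meg3* dropped with them to 0.516% and 1.17% and *Dlk1* to 1.02% and 2.02%. *Peg3* kept 4.21% and 6.37%, *Plagl1* 6.24% and 7.02%, *Ndn* 12.7% and 12.8%, *Gnas* 32.7% and 32.7% and *Kcnq1ot1* 87.7% and 96.3%. In absolute terms the Sertoli gate without doublets held 35.8 and 66.7 CPM of *Meg3* and 845 and 876 CPM of *Gnas*. Of 28 members compared, 20 and 19 had an interval that lay above the highest marker, against 94.2% and 93.3% of all genes with at least 100 UMIs in the stroma.

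**Figure D4:**
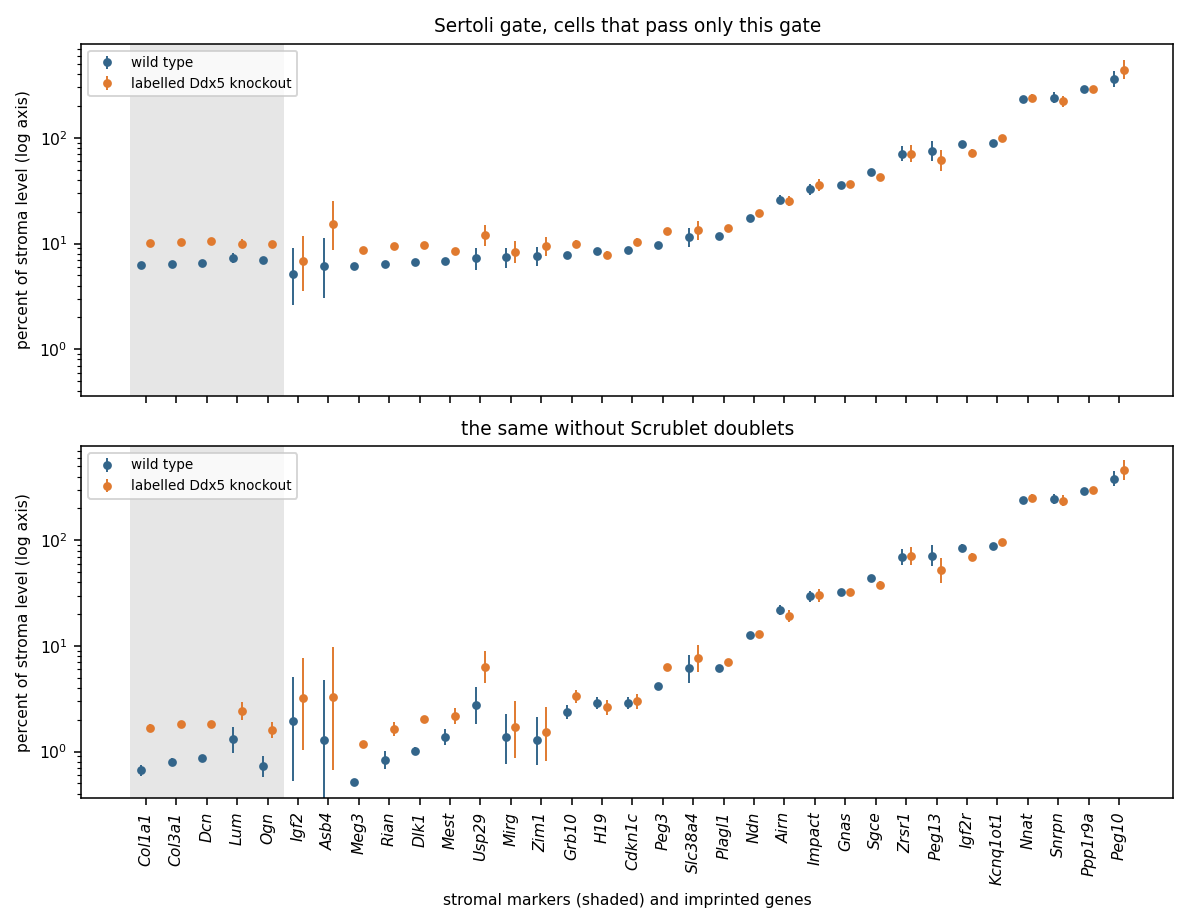
Level of imprinted genes in cells that passed only the Sertoli gate, as percent of their stroma level (log axis, bars are 95% intervals), with all such cells (top) and with predicted doublets removed (bottom), beside 5 stromal markers in the shaded columns. *Meg3*, *Dlk1*, *Rian* and *Mest* move down with the markers when doublets are removed, while *Gnas*, *Kcnq1ot1*, *Nnat*, *Snrpn*, *Ppp1r9a* and *Peg10* stay in place.

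Leydig cells gave a different ranking. In cells that passed only the Leydig gate *Meg3* kept 17.2% and 20.7% of its stroma level and *Rian* 18.6% and 24.4%, above the markers at 0.377% to 10.3% and 0.519% to 11.03%. *Dlk1* kept 1.10% and 0.992% and so lay within the marker range. In macrophages that passed only 1 gate *Meg3* was at 80.4 and 16.3 CPM, far below the 406 and 1080 CPM of the whole gate.

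Dividing stroma cells, defined by at least 3 UMIs of *Mki67* and *Top2a* together, differed from stroma cells without these UMIs in several abundant members, most of which were lower. *Meg3* had a ratio of 0.577 and 0.561, *Dlk1* of 0.636 and 0.680, *Rian* of 0.685 and 0.707, *Ndn* of 0.714 and 0.723 and *Plagl1* of 0.724 and 0.719. *H19* went the other way, at 1.13 (1.09 to 1.17) and 1.30 (1.25 to 1.36), and *Mest* was at 1.07 and 1.06. *Nnat* was the 1 member of 31 at least 2-fold higher in both libraries, at 2.59 (2.36 to 2.84) and 2.79, where 5.77% of all genes were higher, and 0 members were at least 2-fold lower (1.74% of all genes). The median member ratio was 0.873 and 0.827, and the median over all genes 0.982 and 0.984. In Sertoli cells 0 of 27 members passed 2-fold in either direction (3.54% of all genes higher and 0.253% lower), and the median was 1.04 and 1.03. The 752 and 566 dividing stroma cells were deeper than the others, with 14469.5 against 9237 UMIs in wild type, and the part of depth in these ratios was not tested.

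**Figure D5:**
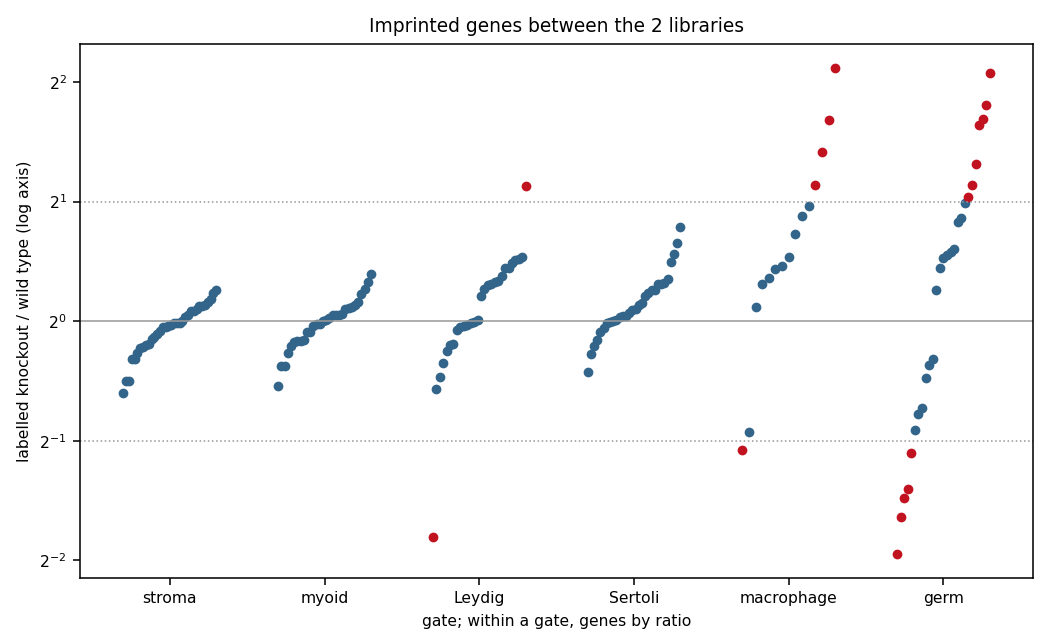
CPM ratio of the library labelled knockout to wild type (log2 axis) for each imprinted gene tested, by gate and in order of ratio, with red points past 2-fold (dotted lines). Points of the stroma, myoid and Sertoli gates lie between 0.659 and 1.73, and the spread widens in the small macrophage and germ gates.

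Between the libraries the somatic levels of imprinted genes were similar in the large gates. In the stroma 0 of 34 members differed by 2-fold, where 1.41% of all genes were higher and 2.11% lower, and the ratios of the library labelled knockout to wild type ran from 0.659 to 1.20 with a median of 0.976, against 0.996 over all genes. In myoid cells 0 of 30 members differed by 2-fold (0.869% of all genes higher and 1.69% lower), with ratios from 0.686 to 1.32, and in Sertoli cells 0 of 30 (1.28% higher and 4.5% lower), with ratios from 0.744 to 1.73. The Sertoli ratio of *Meg3* was 1.58 (1.54 to 1.62), and the stromal marker *Dcn* stood at 192 and 333 CPM in the same cells. The part of stromal RNA in that ratio was not tested. In Leydig cells *Mirg* had a ratio of 2.18 (1.06 to 4.77) and *Usp29* of 0.286 (0.0948 to 0.727) among 28 members, where 1.46% of all genes were higher and 1.56% lower. These rest on 12 and 25 UMIs of *Mirg* and on 22 and 6 of *Usp29*, and in cells that passed only the Leydig gate both intervals included 1, at 0.749 to 8.58 and 0.0519 to 1.10.

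The small gates differed more. In germ cells 7 of 27 members were at least 2-fold higher in the library labelled knockout (9.66% of all genes) and 5 at least 2-fold lower (42.6%), and the median ratio was 1.45 for the members against 0.601 for all genes. *Cdkn1c* was at 66.2 and 278 CPM, a ratio of 4.21 (3.39 to 5.20), and *Meg3* at 185 and 645 CPM, a ratio of 3.49 (3.05 to 3.99). *Rian*, *Usp29*, *Grb10*, *Sgce* and *Asb4* were also higher, with ratios between 2.05 and 3.23, of which *Sgce* (0.875 to 4.28) and *Asb4* (0.884 to 9.002) had intervals that included 1, and *Mest* (0.260), *Ascl2* (0.322), *Igf2r* (0.378), *Snrpn* (0.359) and *Nnat* (0.467) were lower, with intervals that included 1 for *Ascl2*, *Snrpn* and *Nnat*. These ratios set 12 cells against 125, and the *Ascl2* ratio rests on 2 UMIs in the library labelled knockout. On the log2 scale the ratios of *Meg3* and *Ascl2* were −0.34 and 0.88 without dividing cells, and those of *Rian* and *Snrpn* were −1.08 and 0.092 in germ cells chosen by GFP or CRE, so the direction of these 4 depends on the cells taken. Markers of other cell types also differed. The 7 Sertoli markers summed to 1200 CPM in the wild type germ gate and to 69.1 CPM in the library labelled knockout, and the 6 stromal markers to 287 and 464 CPM. Of the wild type germ cells 31.2% also passed the Sertoli gate, against 0%, and 14.4% also passed the stroma gate, against 33.3%. The part of these markers and cells in the ratios was not tested. In macrophages *Dlk1* (3.20), *Meg3* (2.66), *Rian* (2.20) and *Plagl1* (4.33) were higher among 15 members (3.88% of all genes) and *H19* (0.472) was lower (3.49%), but in cells that passed only the macrophage gate *Dlk1* and *Meg3* turned around, with ratios of 0.297 and 0.202. *Rian* was at −0.66 on the log2 scale there. This rests on fewer than 3 UMIs in each library, so its direction cannot be read. *H19* turned around without dividing cells, to 0.16. In the whole macrophage gate the 6 stromal markers summed to 561 and 1130 CPM and the 4 globin transcripts to 2758 and 7.62 CPM. The part of such RNA in the macrophage ratios was not tested. Intervals beyond 1.1-fold in opposite directions in different gates were found for 5 of 31 members (16.1%), *Dlk1*, *Usp29*, *Kcnq1ot1*, *Igf2r* and *Gnas*, against 3.16% of all genes, which were not matched for abundance.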

How the data were processed

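Whole testes were profiled by droplet 3′ single-cell RNA-seq. The authors made the deposited table of raw UMI counts per gene and cell barcode with Cell Ranger 3.1.0 on GRCm38 (submitters' processing notes, which also name Seurat 3.1.5), to which the GFP and CRE sequences had been appended. Library suffix 3 was taken as wild type and 4 as the library labelled knockout from the cell numbers the study states; 12 barcodes occur in both libraries. Barcodes under 2000 genes or over 10% mitochondrial UMIs were removed, as in the study, which left 6329 and 4950 cells. Before this filter the libraries held 6763 and 5423 barcodes with 84263163 and 67558106 UMIs. Gates used fixed UMI limits and comparisons needed 20 UMIs. A floor of 3 UMIs was used to mark low levels and removed no gene from a comparison. Doublets were predicted with Scrublet (scanpy 1.11.5), which marked 4.49% and 5.98% of cells. Sums, intervals and thinning were computed in Python 3.11.15 (SciPy 1.17.1, NumPy 2.4.6, pandas 2.3.3, with matplotlib 3.10.9 for plots). Positions and overlaps came from GENCODE for GRCm38; the annotation used for counting is not given in the sources used here. No count model was run, since each genotype had 1 library, and 0 columns of samples outside the series were met. The members, gene lists and gates were chosen with earlier results of these data known. Members at or above 100 CPM in at least 1 gate were described with all levels, the rest by range and count. Scripts were tested on simulated data.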

Additional observations from a re-analysis of the deposited data

Results flagged for a closer look

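For 5 members the ratio of the library labelled *Ddx5* knockout to wild type pointed in opposite directions in different cell types, with counting intervals beyond 1.1-fold on each side. This was 5 of the 31 members with at least 20 UMIs in at least 2 gates, against 3.16% of all such genes, which were not matched for abundance. The difference between cell types was not tested, because each genotype had 1 library. *Dlk1* was at 0.854 in the stroma and 0.773 in myoid cells, and at 1.20 in Sertoli cells, 3.20 in macrophages and 1.47 in germ cells. Its ratio was 0.297 in cells that passed only the macrophage gate, and 0.933 (0.922 to 0.944) in stroma cells that held *Meg3*, which is within 1.1-fold. *Usp29* was at 0.803 in the stroma and 0.286 in Leydig cells, and at 3.23 in germ cells. *Kcnq1ot1* was at 1.45 in Leydig cells and 1.17 in Sertoli cells, and at 0.530 in germ cells. *Igf2r* was at 1.20 in the stroma and 0.378 in germ cells, and *Gnas* at 1.28 in macrophages and 0.606 in germ cells. The germ ratios rest on 12 cells of the library labelled knockout, and the Sertoli ratio of *Dlk1* stood beside stromal *Dcn* at 192 and 333 CPM. The part of stromal RNA in it was not tested.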

How the results depend on the processing

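Of 288 recomputed counts of members, from 24 counts under up to 14 alternatives, 244 stayed within 1.5 times of the reported count and 44 did not; the counts of the stroma gate that moved were library differences only. Members at or above 100 CPM came to 5 in wild type Leydig cells, 0 in wild type germ cells, and 1 and 1 in macrophages (wild type, library labelled knockout) with cells of a single gate. With doublets removed they came to 3 and 3 in Sertoli cells and 2 in wild type macrophages. With the mean of the CPM of single cells they came to 2 and 3 in macrophages, without dividing cells to 2 in wild type macrophages, and at 50 CPM to 8 in wild type macrophages and 9 in wild type germ cells. Members higher than in the other gated cells came to 0 in germ cells after thinning and without dividing cells and to 5 with at least 1 UMI, and to 1 in macrophages with at least 1 UMI. In myoid cells they came to 2 with single-gate cells, doubled gate limits, the mean of the CPM of single cells, thinning, no dividing cells or at least 1 UMI, to 3 without ribosomal protein genes or doublets, and to 7 at 1.5-fold. Members differing between the libraries came to 0 in Leydig cells with single-gate cells or at least 50 UMIs, 1 with the mean of the CPM of single cells and 5 with at least 1 UMI. In germ cells they came to 5 after thinning or without dividing cells and 19 at 1.5-fold. In macrophages they came to 3 with single-gate cells, 10 without doublets, 2 after thinning, 9 without dividing cells or at 1.5-fold, and 15 with at least 1 UMI. In Sertoli cells they came to 4 with at least 1 UMI and 2 at 1.5-fold, in myoid cells to 1 with single-gate cells and 4 with at least 1 UMI, and in the stroma to 1 with at least 1 UMI and 1 at 1.5-fold. The log2 ratio between libraries reversed for *Dlk1* (−1.75), *Meg3* (−2.31) and *Rian* (−0.66) in single-gate macrophages. The *Rian* value rests on fewer than 3 UMIs in each library, and those of *Dlk1* and *Meg3* on few UMIs in the library labelled knockout. Without dividing cells it reversed for *H19* in macrophages (0.16) and for *Ascl2* (0.88) and *Meg3* (−0.34) in germ cells. It reversed for *Rian* (−1.08) and *Snrpn* (0.092) in germ cells chosen by GFP or CRE. The cause was not tested. Counts at 2500 genes per cell, with the germ gate by GFP or CRE, or with myoid-gated cells out of the stroma stayed within 1.5 times. The last 2 of these, and the *Meg3* alternative that follows, were chosen after seeing the data. With all stroma cells, doublets included, the share of wild type cells without *Meg3* was 6.95% and the *Dlk1* ratio 2.96. No paired analysis was possible because the table's columns carry no replicate numbers.

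Counting error limits the macrophage and germ gates most, where 3 UMIs are worth 5.27 and 5.71 CPM in macrophages and 6.48 CPM in the germ gate labelled knockout. A level below these values was not detectable at this depth. No replicate check of a library difference was possible with 1 library per genotype, and allele, animal and labelled sample could not be read from the barcodes.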

Other observations

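Of 35 other imprinted genes from a second list, the abundant ones were *Cd81*, a tetraspanin, at 2404 and 2101 CPM in Leydig cells and 1055 and 1019 in the stroma, and *Dcn*, a small proteoglycan imprinted in placenta and also used here as a stromal marker, at 2372 and 2633 CPM in the stroma. *Pon2*, a paraoxonase, reached 123 and 85.7 CPM in macrophages. Of 12 factors that protect, set or erase imprints, *Zfp57*, the zinc finger protein that binds the hexamer searched in the promoters, was at 34.6 and 34.8 CPM in myoid cells, 26.5 and 25.9 in the stroma and 5.28 and 6.19 in Sertoli cells. *Dnmt3l*, a cofactor of new methylation in germ cells, was at 19.4 CPM in wild type germ cells and 278 CPM in the 12 germ cells of the library labelled knockout, and *Uhrf1*, a cofactor of maintenance methylation, was at 171 and 0 CPM.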
